A study of Mus musculus with 6 samples.

Results

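The genes described here build, start and run the DNA replication fork. They are 50 genes chosen by name and by step: origin recognition and licensing (9 genes), the helicase and its activation (16), the polymerases, clamp and Okazaki fragment enzymes (20), and nucleotide and histone mRNA supply (5). Of the 50, 49 had a probe of their own and are among the 22180 genes tested. The only probe of Rfc4, a clamp loader subunit, is shared with the neighbouring gene Eif4a2, so Rfc4 has no value here.

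Levels come from 6 arrays of bone marrow cells sorted by the LSK phenotype, in which mature lineage markers are absent and the surface proteins Sca-1 and Kit are present. All mice had the C57Bl6 background, carried Tg(Cdh5-Cre/ERT2), a tamoxifen-inducible Cre driven by the promoter of the endothelial gene Cdh5, and a Rosa 26 YFP reporter, and received tamoxifen on days 1, 2 and 3 after birth. At postnatal day 27, LSK cells were divided into YFP-positive (3 arrays) and YFP-negative cells (3 arrays), and both populations come from induced mice. YFP marks cells, and the descendants of cells, in which Cre was active. The labels do not say whether replicates are separate animals, so a p-value reflects the spread among these arrays alone, and that spread may be technical.

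Replication is prepared before S phase, when the origin recognition complex, Cdc6 and Cdt1 load the ring of Mcm2 to Mcm7 onto DNA. The kinase Cdc7 with Dbf4, together with cyclin-dependent kinase, then brings in Cdc45 and the GINS complex, which turns the ring into an active helicase. Polymerase alpha with primase starts each strand, polymerases delta and epsilon extend it on the clamp Pcna, and Fen1 and Lig1 join the Okazaki fragments. Many of these genes are transcribed under E2F factors as cells leave quiescence, a state in which long-term blood stem cells spend most of their time.

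The 6 arrays were on nearly one scale, with medians of 3.62 to 3.68 over all probes and 3.88 to 3.95 over the genes tested. Kit, which defines the gate, measured 6.98, 6.56 and 7.06 in YFP-positive and 7.57, 7.96 and 7.74 in YFP-negative arrays, and the gene of Sca-1 was not analysed here. Kit was lower in YFP-positive cells (adjusted p = 0.0496), a call that was lost in each of the 6 fits without 1 array (adjusted p = 0.0598 to 0.148). Cdh5 measured 11.63, 11.84 and 11.29 against 5.40, 4.55 and 3.71. All 10 endothelial markers were higher in YFP-positive arrays, where their summed linear level was 9812 to 13434 against 330.3 to 765.8. Tie1 lost that call without each array but YFP-positive replicate 3 (highest adjusted p = 0.089) and Emcn without each but YFP-negative replicate 3 (0.103).

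YFP-positive replicate 3 stood apart from the other YFP-positive arrays in Ptprc and in the summed pan-leukocyte level. For Ptprc, the gene of the leukocyte protein CD45, the YFP-positive arrays gave 6.52, 6.95 and 9.52 in replicate order, and the YFP-negative arrays 9.33, 9.23 and 9.37. The summed level of 10 pan-leukocyte markers was 1794 to 7599 in YFP-positive and 6655 to 7122 in YFP-negative arrays. In replicate order, 9 neutrophil markers summed to 11337, 13756 and 23388 against 5221, 8317 and 19927, highest in replicate 3 of both populations. Within this list 7 differences were above 0 and 2 below, Mpo (-1.10) and Prtn3 (-0.61). Among the YFP-negative arrays, Mpo and Prtn3 were lowest in replicate 3. None of the 9 neutrophil markers passed, where 4.84% of all genes did. Stem and progenitor markers summed to 485 to 613 against 2133 to 2471, with every YFP-positive array lower in the sum. Of the 7 measured, 5 fell, against 1.96% of all genes. The other 2, Slamf1 and Procr, overlapped between the populations, at differences of -0.10 and -0.03. Vav1 and Cd48 were the 2 pan-leukocyte genes that fell, and in both replicate 3 lay below every YFP-negative array (5.22 for Vav1 and 6.37 for Cd48). Cd48 lost the call without YFP-positive replicate 2 and without any 1 of the YFP-negative arrays (highest adjusted p = 0.0867). Of 7 macrophage markers 1 rose, Mrc1, at 10.27, 10.38 and 10.10 against 3.34, 3.25 and 3.87. The other macrophage markers differed by -0.22 to 0.20 and none passed. Whether the cells named by these lists were present, and what part they have in the results on replication genes, was not tested. In sorted bulk samples, fewer cells of a type and less RNA per cell cannot be told apart.

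The DNA before the start site is shown for the Mcm2 to Mcm7 ring and for the 3 members whose call held in every fit without 1 array (Mcm8, Rfc1 and Rpa3). The sequences are RefSeq's for GRCm38.p6, the 180 bases before an annotated start, 5′ to 3′ on the gene's strand. Where a gene has several starts, the stretch with the most matches of the 2 motifs below is shown. Mcm4 has no entry. Capitals mark 2 motifs, searched on both strands. One is the E2F site, taken as TTTCCCGC, TTTCGCGC, TTTGCCGC or TTTGGCGC, and the other is the CCAAT box, which reads ATTGG where it lies on the opposite strand.
Mcm2 (chr6:88898781-88898960, minus strand): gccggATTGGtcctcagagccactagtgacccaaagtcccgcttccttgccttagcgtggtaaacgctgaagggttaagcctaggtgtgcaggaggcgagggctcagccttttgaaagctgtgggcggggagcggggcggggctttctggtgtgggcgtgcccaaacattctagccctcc
Mcm3 (chr1:20820313-20820492, minus strand): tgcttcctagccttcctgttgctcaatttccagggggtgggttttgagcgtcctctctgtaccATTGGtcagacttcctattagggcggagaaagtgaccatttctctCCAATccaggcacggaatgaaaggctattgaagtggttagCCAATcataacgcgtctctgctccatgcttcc
Mcm5 (chr8:75109329-75109508, plus strand): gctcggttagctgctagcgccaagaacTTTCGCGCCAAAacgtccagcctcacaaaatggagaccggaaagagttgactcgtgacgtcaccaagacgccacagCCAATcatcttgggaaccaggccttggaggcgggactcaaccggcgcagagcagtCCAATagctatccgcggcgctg
Mcm6 (chr1:128359706-128359885, minus strand): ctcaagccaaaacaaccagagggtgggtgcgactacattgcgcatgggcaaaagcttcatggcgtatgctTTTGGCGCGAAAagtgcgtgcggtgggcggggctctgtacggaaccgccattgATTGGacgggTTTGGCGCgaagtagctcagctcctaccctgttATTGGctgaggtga
Mcm7 (chr5:138171884-138172063, minus strand): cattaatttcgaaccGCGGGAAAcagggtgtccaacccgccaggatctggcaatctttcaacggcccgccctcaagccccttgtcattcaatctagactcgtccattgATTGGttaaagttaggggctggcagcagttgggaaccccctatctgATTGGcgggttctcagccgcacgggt
Mcm8 (chr2:132815961-132816140, plus strand): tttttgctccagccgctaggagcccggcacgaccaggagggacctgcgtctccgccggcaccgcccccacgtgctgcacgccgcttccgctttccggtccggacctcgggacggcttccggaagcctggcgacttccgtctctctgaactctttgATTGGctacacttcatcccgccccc
Rfc1 (chr5:65335640-65335819, minus strand): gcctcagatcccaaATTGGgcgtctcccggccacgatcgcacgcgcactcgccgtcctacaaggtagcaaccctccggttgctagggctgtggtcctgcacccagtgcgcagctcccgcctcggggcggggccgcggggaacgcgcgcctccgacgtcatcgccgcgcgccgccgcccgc
Rpa3 (chr6:8259142-8259321, minus strand): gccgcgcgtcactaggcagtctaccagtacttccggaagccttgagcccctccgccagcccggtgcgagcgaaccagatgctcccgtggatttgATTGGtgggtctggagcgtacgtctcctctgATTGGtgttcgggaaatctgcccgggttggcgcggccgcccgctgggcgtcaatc

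In Mcm5 the E2F letters begin 153 bases before the start, and a second match on the opposite strand overlaps the first, so that both form a single run of capitals. Mcm6 has the same arrangement 110 bases before its start and a further E2F match 47 bases before it, next to a CCAAT box 57 bases before it. The Mcm7 stretch has 1 E2F match, 165 bases before the start. Mcm7 has 2 annotated starts, and the window of the start not shown holds a CCAAT box and no E2F match. The stretches of Mcm2, Mcm3, Mcm8, Rfc1 and Rpa3 hold CCAAT boxes but none of the E2F letters, which says only that these letters are not in this stretch. Mcm3 and Mcm8 have E2F matches after the start, outside the stretches printed. In the table's full windows (250 bases before to 50 after a start), 16 of the 41 measured members with an entry (39.0%) held an E2F match, against 554 of 16990 genes tested with an entry (3.26%). A CCAAT box was in 25 of the 41 (61.0%) against 7076 (41.6%), and the cell cycle homology letters TTTGAA in 7 (17.1%) against 3019 (17.8%). A match is a description of the sequence and not a measured binding site.

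Replication genes that changed between the populations were all lower in YFP-positive LSK cells, and all belong to the helicase and polymerase steps. Of the 49 members, 14 (28.6%) fell at an adjusted p under 0.05, where 1.96% of all genes tested fell. No member rose in limma, against 2.88% of all genes. None rose without moderation of the variance, where 0.812% of all genes passed in either direction. At an unadjusted p under 0.05, 0 members were higher, against 7.79% of all genes. The members' median log2 difference (YFP-positive mean minus YFP-negative mean) was -0.93, against -0.01 over all genes tested. For 47 of the 49 the difference was below 0 (51.3% of all genes), although Pold3 and Slbp moved to 0.01 and 0.08 after quantile normalization. In the fits without 1 array 44 to 46 were below 0, and the members that changed sign moved to at most 0.24 (Slbp). In 34 members (69.4%) all 3 YFP-positive arrays lay below all 3 YFP-negative arrays, which held for 11.9% of all genes, and in 1 member, Orc5, they all lay above (10.8% of all genes). The YFP-positive arrays had the larger SD in 33 members, or 67.3%, against 53.2% of all genes.

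The number of members that fell was smaller without some arrays. Leaving out YFP-positive replicate 1, 2 or 3 gave 6, 10 or 17. In these fits 2.52%, 2.74% or 5.34% of all genes passed in either direction, against 4.84% with all arrays. Leaving out YFP-negative replicate 1, 2 or 3 gave 5, 4 or 6, where 2.09%, 1.94% or 2.75% of all genes passed. The number was 0 with an ordinary linear model in place of limma's moderated variance, where 0.812% of all genes passed. In that model 29 members were lower at an unadjusted p under 0.05, against 35 in limma (9.44% of all genes). Mcm8, Rfc1 and Rpa3 fell in each of the 6 fits without 1 array, and Prim1 and Pold1 in none of them.

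**Figure D1:**
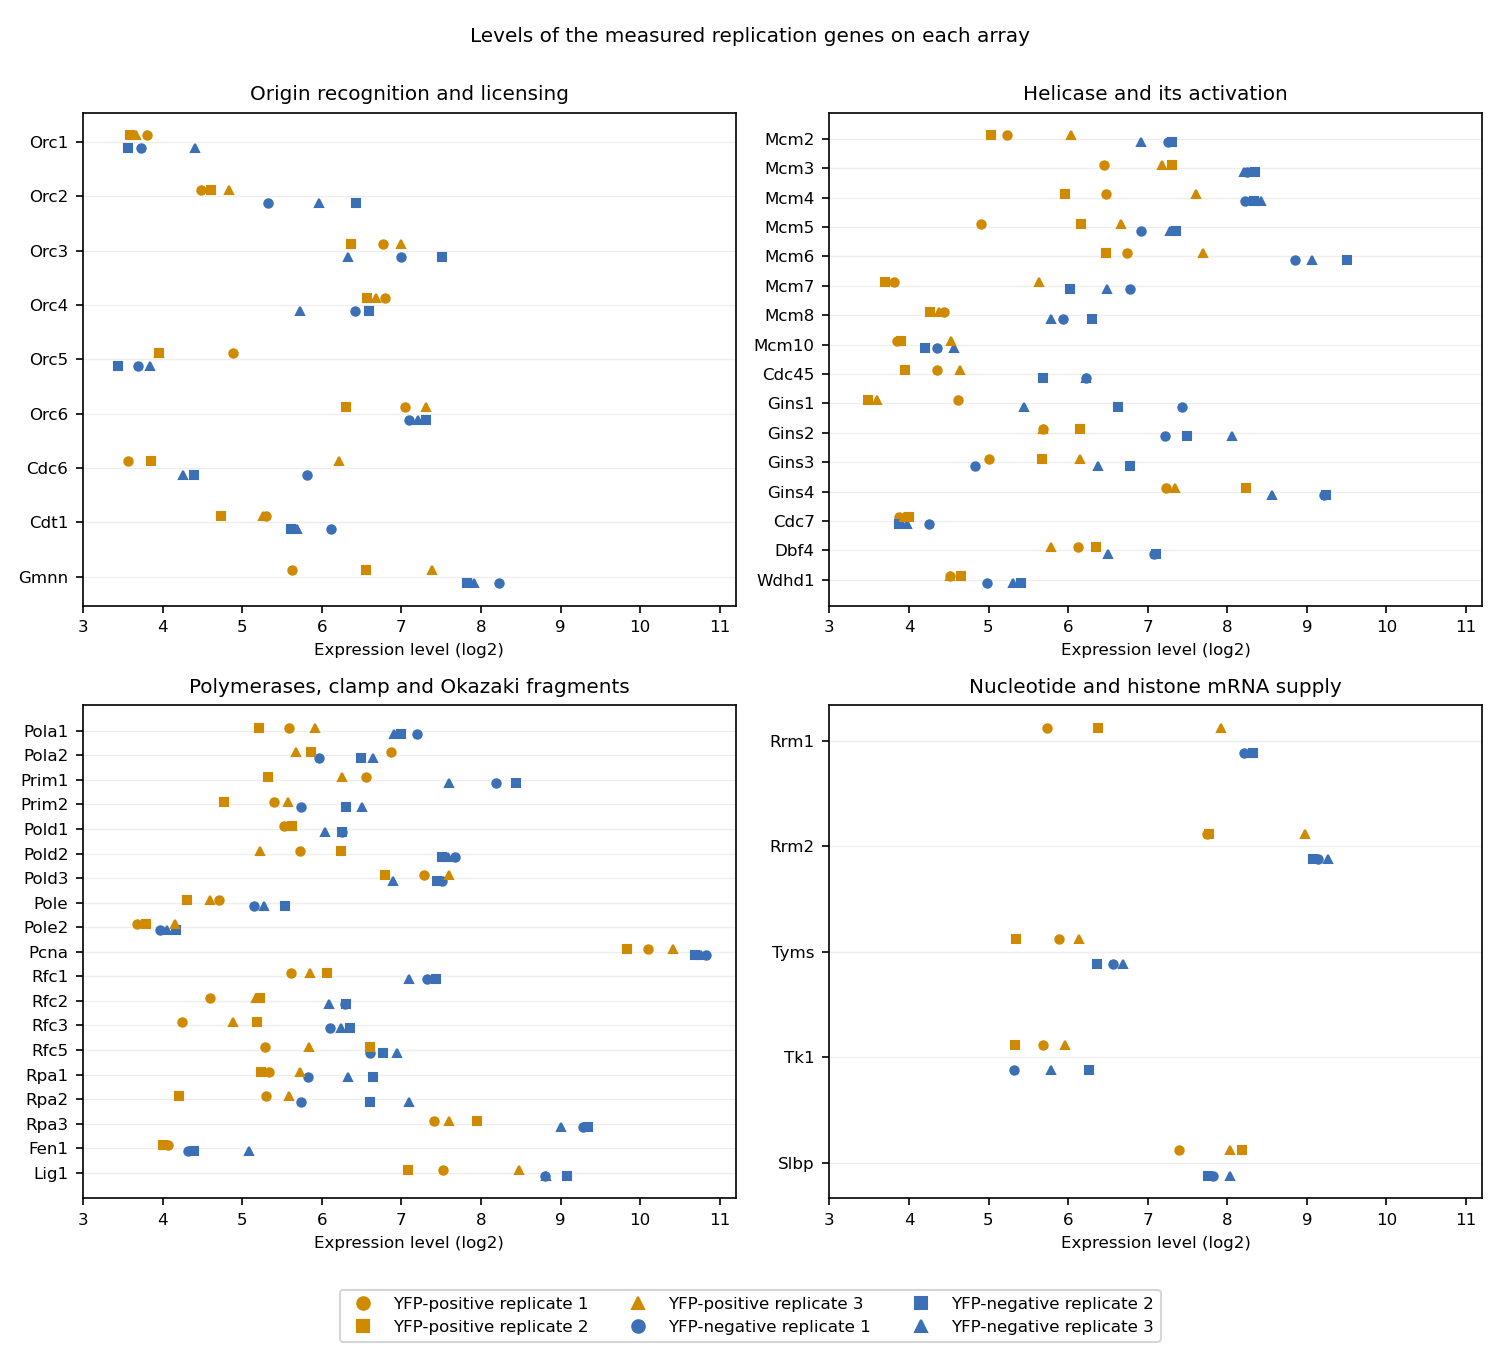
Expression level (log2, horizontal axis) of the 49 measured replication genes on each array, by step, with YFP-positive arrays in orange and YFP-negative arrays in blue and 1 marker shape per replicate number. In 34 genes every orange point lies left of every blue point.

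The origin recognition complex marks where replication can begin. None of the 9 origin genes passed (0 in limma, against 4.84% of all genes, and 0 without moderation, against 0.812%). Their median difference was -0.27. At an unadjusted p under 0.05 in limma, 3 were lower (against 9.44% of all genes) and 0 higher (against 7.79%). Orc2 measured 4.48, 4.61 and 4.84 in YFP-positive and 5.32, 6.43 and 5.97 in YFP-negative arrays, the only subunit whose YFP-positive arrays were all lower (-1.27, adjusted p = 0.0714, and 0.0356 without YFP-negative replicate 1). Orc1, the subunit whose level cycles with E2F activity, measured 3.80, 3.59 and 3.66 against 3.73, 3.56 and 4.41. Most of these values lie near the array medians.

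Other subunits of the complex, which most cells keep through the cycle, showed overlapping groups or higher values. Orc3, Orc4 and Orc6 differed by -0.23, 0.43 and -0.32, with 95% intervals of -1.03 to 0.57, -0.14 to 1.01 and -0.97 to 0.33. Orc5 measured 4.88, 3.96 and 3.95 against 3.69, 3.44 and 3.84, so its YFP-positive arrays were all higher (0.61, adjusted p = 0.35), from a YFP-negative level below the array medians. Orc4 and Orc5 were the only members with a difference above 0.

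The licensing factors differed in how their arrays spread. Cdt1, which loads the helicase ring together with Cdc6, measured 5.30, 4.73 and 5.26 against 6.11, 5.61 and 5.69, with no overlap (-0.70, adjusted p = 0.156). Geminin, encoded by Gmnn, binds Cdt1 after S phase begins and prevents a second round of loading. Its levels were 5.63, 6.56 and 7.39 against 8.23, 7.82 and 7.91, the largest difference among origin genes (-1.46, adjusted p = 0.145). Gmnn passed without YFP-positive replicate 3 (adjusted p = 0.0356). Cdc6 measured 3.56 and 3.86 in YFP-positive replicates 1 and 2 but 6.21 in replicate 3, above the 5.81, 4.39 and 4.25 of the YFP-negative arrays. Its difference of -0.27 had an interval of -2.20 to 1.66, the widest among origin genes. The Cdc6 values of YFP-positive replicates 1 and 2 lie below the array medians.

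The ring of Mcm2 to Mcm7, which unwinds DNA ahead of the fork, had 3 subunits that fell, against 1.96% of all genes. All 6 had every YFP-positive array below every YFP-negative array, against 11.9% of all genes. Their differences were -1.28 to -2.17, with a median of -1.68. Mcm2, Mcm3 and Mcm6 were those that fell. Mcm6 measured 6.74, 6.47 and 7.70 against 8.85, 9.50 and 9.06, a mean of 6.97 ± 0.64 against 9.14 ± 0.33 (SD, n = 3 each), or 4.50-fold lower (adjusted p = 0.0252). Mcm2 measured 5.23, 5.03 and 6.03 against 7.25, 7.30 and 6.92 (3.31-fold lower, -1.73 ± 0.28 SE, adjusted p = 0.0263). Both lost the call without each array but YFP-positive replicate 3 (highest adjusted p = 0.0923 for Mcm6 and 0.101 for Mcm2). Mcm3 measured 6.45, 7.31 and 7.18 against 8.25, 8.35 and 8.21 (2.45-fold lower, adjusted p = 0.0386) and lost it without each array but YFP-positive replicate 1 (highest adjusted p = 0.13).

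The other 3 ring subunits were low in YFP-positive replicates 1 and 2 and closer to the YFP-negative arrays in replicate 3. Mcm4 measured 6.48, 5.96 and 7.61 against 8.22, 8.33 and 8.42 (-1.64, adjusted p = 0.0917). Mcm7 measured 3.81, 3.70 and 5.63 against 6.78, 6.02 and 6.49 (-2.05, adjusted p = 0.11), with YFP-positive replicates 1 and 2 below the array medians. Without YFP-positive replicate 3 both Mcm4 and Mcm7 passed, at adjusted p = 0.00675 and 0.00679. Mcm5 measured 4.90, 6.16 and 6.66 against 6.91, 7.35 and 7.28 (-1.28, adjusted p = 0.21), so here YFP-positive replicate 1 was the lowest array.

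Mcm8 and Mcm10 carry the MCM name but are not part of the ring. Mcm8, which works with Mcm9 in recombination repair, measured 4.44, 4.26 and 4.38 against 5.93, 6.30 and 5.79. The 3 YFP-positive arrays lay within 0.2 of each other, and Mcm8 had the smallest adjusted p of the 49 members (3.14-fold lower, -1.65 ± 0.16 SE, adjusted p = 0.0046, at most 0.0253 without 1 array). Mcm10, which helps to activate the loaded helicase, measured 3.85, 3.90 and 4.53 against 4.35, 4.20 and 4.56, with overlap (adjusted p = 0.616).

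Cdc45 and the 4 GINS subunits join the ring to form the working helicase. Cdc45 measured 4.35, 3.95 and 4.64 against 6.22, 5.69 and 6.22, which is 3.32-fold lower (-1.73 ± 0.23 SE, adjusted p = 0.0151). Gins2 measured 5.69, 6.15 and 5.68 against 7.22, 7.49 and 8.06, or 3.35-fold lower (adjusted p = 0.0189). In both, every YFP-positive array, replicate 3 included, lay over 1 log2 unit below every YFP-negative array. The call on Cdc45 was lost in the fits that omit YFP-positive replicate 1, YFP-negative replicate 1 or YFP-negative replicate 3 (adjusted p up to 0.0642). That on Gins2 was lost when YFP-positive replicate 1 or YFP-negative replicate 2 was omitted (up to 0.0681).

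Among the remaining GINS genes, the largest difference of all 49 members did not pass. Gins1 measured 4.61, 3.49 and 3.60 against 7.43, 6.63 and 5.45, and the spread of the YFP-negative arrays (SD 0.99) went with an interval of -3.95 to -1.25 (-2.60, adjusted p = 0.0589). It passed without YFP-negative replicate 3 (0.0373), and its YFP-positive mean of 3.90 lay near the array medians. Gins4 measured 7.23, 8.23 and 7.34 against 9.22, 9.24 and 8.56 (-1.41, adjusted p = 0.0756) and passed without YFP-positive replicate 2 (0.0418). Gins3 overlapped, at 5.0, 5.67 and 6.15 against 4.83, 6.78 and 6.38 (-0.39, adjusted p = 0.814).

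The kinase that fires origins gave less. Dbf4, its regulatory subunit, measured 6.13, 6.35 and 5.78 against 7.08, 7.11 and 6.50, with no overlap (-0.81, adjusted p = 0.126). Cdc7, the catalytic subunit, measured 3.87, 4.00 and 3.94 against 4.25, 3.88 and 3.97, near the array medians in both populations. Wdhd1, which ties polymerase alpha to the helicase, measured 4.51, 4.66 and 4.52 against 4.98, 5.41 and 5.31 (-0.67, adjusted p = 0.064). Across the 16 helicase genes 6 fell (against 1.96% of all genes), 13 had every YFP-positive array lower (against 11.9%) and the median difference was -1.52.

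**Figure D2:**
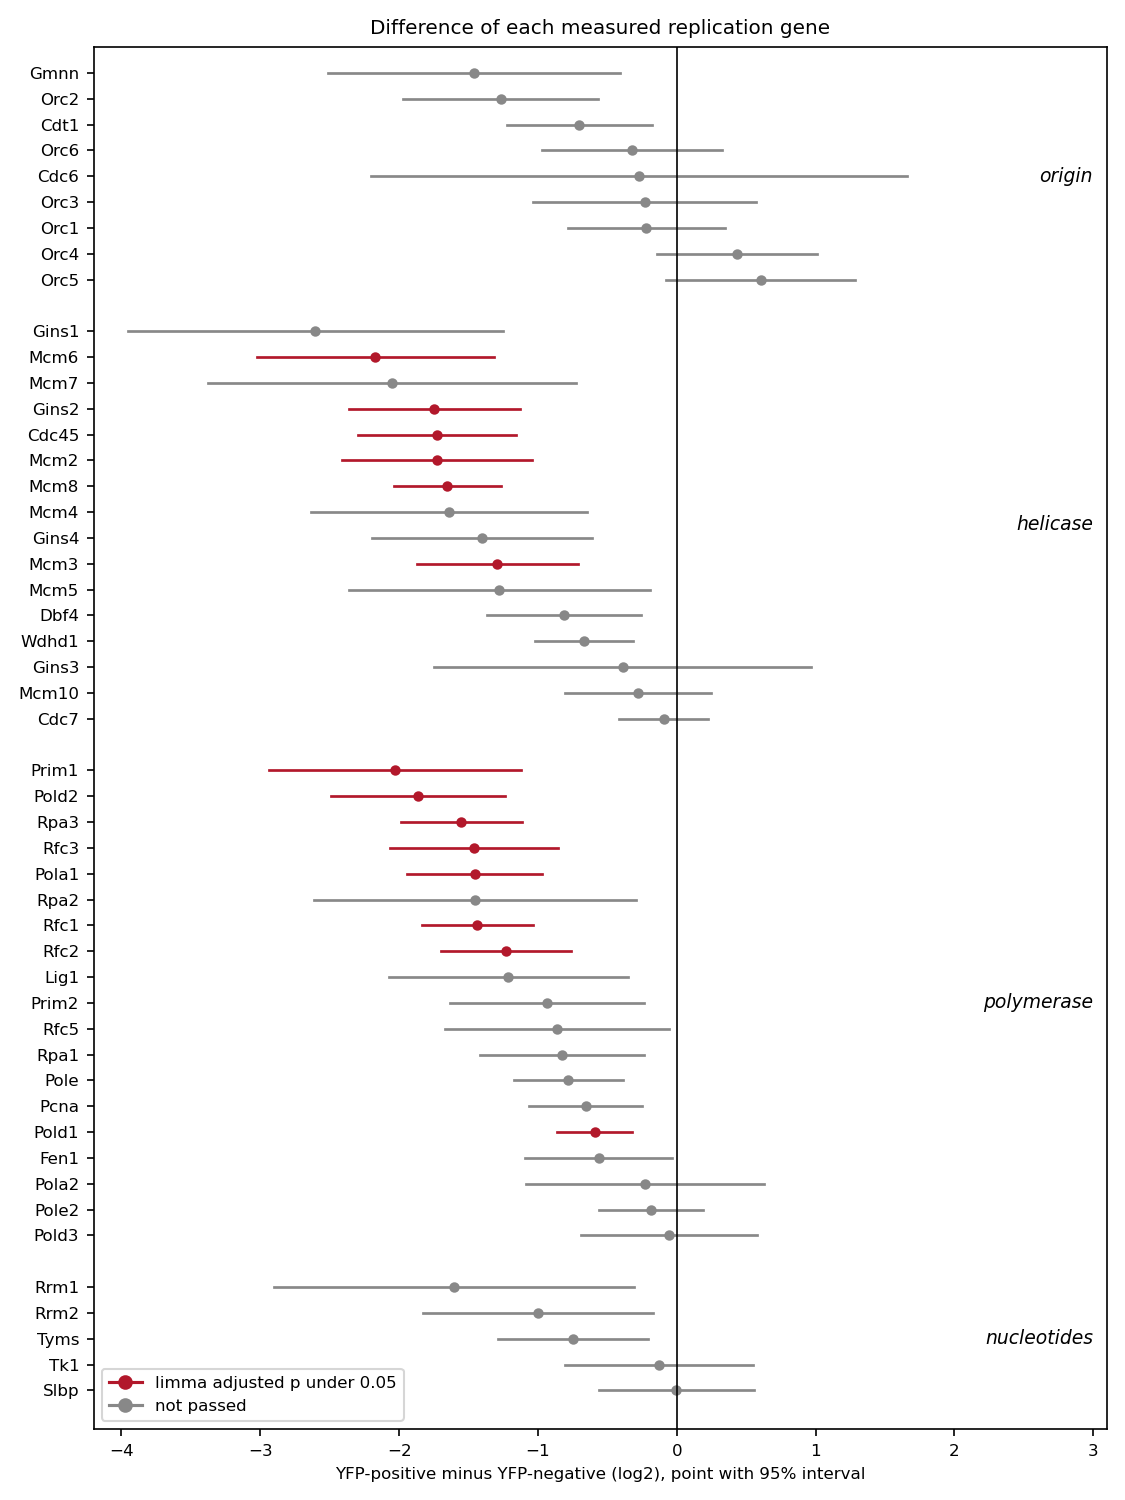
Difference between populations (YFP-positive minus YFP-negative, log2) of the 49 measured genes with the 95% interval from limma, ordered within each step, with the 14 genes past an adjusted p of 0.05 in red. None of the red points is in the origin or nucleotide step, and 2 points, Orc4 and Orc5, lie above 0.

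Polymerase alpha and primase lay down the RNA-DNA primer of each new strand. Pola1, the catalytic subunit, measured 5.59, 5.21 and 5.92 against 7.19, 6.99 and 6.91 (2.74-fold lower, adjusted p = 0.0156), a call lost when YFP-positive replicate 1 or YFP-negative replicate 1 or 2 is omitted (adjusted p up to 0.0648). Prim1, which makes the RNA primer, measured 6.56, 5.33 and 6.26 against 8.19, 8.44 and 7.60, or 4.07-fold lower (-2.03 ± 0.37 SE, adjusted p = 0.0388, but 0.0581 to 0.13 in the 6 fits without 1 array). The partner subunits differed less. Prim2 measured 5.40, 4.77 and 5.58 against 5.74, 6.30 and 6.51 (-0.93, adjusted p = 0.158), with no overlap. Pola2 measured 6.87, 5.87 and 5.68 against 5.97, 6.49 and 6.64, and its YFP-positive replicate 1 was the highest of all 6 arrays (adjusted p = 0.83).

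Polymerase delta, which extends the lagging strand, had 2 subunits that fell (against 1.96% of all genes) and 1 that did not pass. Pold2 measured 5.72, 6.24 and 5.22 against 7.67, 7.51 and 7.59, which is 3.63-fold lower (-1.86 ± 0.26 SE, adjusted p = 0.0161). YFP-positive replicate 3 was the lowest array for Pold2, and the call was lost when YFP-positive replicate 1 or any YFP-negative array is omitted (adjusted p up to 0.0697). Pold1, the catalytic subunit, measured 5.52, 5.62 and 5.62 against 6.25, 6.25 and 6.04, a small difference on tight arrays (1.51-fold lower, adjusted p = 0.0405, and 0.0607 to 0.134 without 1 array). Pold3, an accessory subunit, measured 7.28, 6.80 and 7.60 against 7.51, 7.45 and 6.90, with an interval of -0.69 to 0.58.

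For polymerase epsilon, the leading strand enzyme, neither subunit passed. Pole measured 4.71, 4.31 and 4.60 against 5.15, 5.54 and 5.27 (-0.78, adjusted p = 0.0549), and passed at 0.0498 with arrays centred on their median and at 0.039 after quantile normalization. A dimmer probe of Pole differed by 0.04, from 3.57 to 3.61, at the array medians. Pole2 measured 3.68, 3.79 and 4.15 against 3.97, 4.17 and 4.05, also close to the array medians (adjusted p = 0.643).

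Pcna, the sliding clamp, and its loader are needed by both extending polymerases. Pcna measured 10.10, 9.83 and 10.41 against 10.83, 10.69 and 10.77, without overlap (1.57-fold lower, adjusted p = 0.0999), and passed without YFP-positive replicate 3 (0.041). The loader subunits showed larger differences on the log2 scale. Rfc1, the large subunit, measured 5.61, 6.07 and 5.85 against 7.32, 7.43 and 7.09, or 2.71-fold lower (-1.44 ± 0.16 SE, adjusted p = 0.00863, at most 0.0439 without 1 array). Rfc2 measured 4.60, 5.22 and 5.17 against 6.29, 6.30 and 6.09 (2.34-fold lower, adjusted p = 0.0229). Rfc3 measured 4.24, 5.18 and 4.89 against 6.10, 6.36 and 6.24 (2.75-fold lower, adjusted p = 0.0306).

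In all 3 loader genes that fell, replicate 3 sat with the other YFP-positive arrays. The call on Rfc2 was lost when any YFP-negative array is omitted (adjusted p up to 0.0922). Rfc3 lost it in these fits and when YFP-positive replicate 3 is omitted (up to 0.113). Rfc5 measured 5.29, 6.60 and 5.84 against 6.60, 6.77 and 6.95, so its YFP-positive replicate 2 reached the lowest YFP-negative array (-0.86, adjusted p = 0.256).

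Replication protein A coats the unwound single strands. Its smallest subunit, Rpa3, measured 7.41, 7.95 and 7.60 against 9.28, 9.34 and 9.0 (2.93-fold lower, -1.55 ± 0.18 SE, adjusted p = 0.00893, at most 0.0453 without 1 array). That call rests on the brighter of its 2 probes, since as the mean of both the difference was -1.02 (adjusted p = 0.237). Rpa1 measured 5.34, 5.24 and 5.73 against 5.83, 6.64 and 6.33 (-0.83, adjusted p = 0.141), and its other probe differed by -1.22. Rpa2 measured 5.30, 4.20 and 5.59 against 5.74, 6.61 and 7.09 (-1.45, adjusted p = 0.184). Rpa2 had the largest difference of the polymerase genes that did not pass, and its groups did not overlap.

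The enzymes that finish Okazaki fragments did not pass. Lig1, the ligase, measured 7.52, 7.08 and 8.48 against 8.80, 9.08 and 8.82 (-1.21, adjusted p = 0.141), and passed without YFP-positive replicate 3 (0.0139). Fen1, the flap nuclease, measured 4.07, 4.01 and 4.03 against 4.32, 4.39 and 5.08 (-0.56, adjusted p = 0.261). Of the 19 measured genes of this step 8 fell (against 1.96% of all genes) and 15 had every YFP-positive array lower (against 11.9%), with a median difference of -0.93.

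Ribonucleotide reductase makes the deoxynucleotides that the fork consumes. Its large subunit, Rrm1, measured 5.73, 6.38 and 7.92 in YFP-positive arrays against 8.21, 8.32 and 8.30. Rrm2, the subunit that limits its activity outside S phase, measured 7.75, 7.77 and 8.97 against 9.14, 9.08 and 9.26. In both genes replicates 1 and 2 were far below the YFP-negative arrays, and replicate 3 was close to them without reaching them. Differences were -1.60 (adjusted p = 0.19) and -1.0 (adjusted p = 0.201), and without YFP-positive replicate 3 both passed, at 0.00805 and 0.00558.

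Tyms, which makes thymidylate from deoxyuridylate, measured 5.88, 5.35 and 6.14 against 6.56, 6.36 and 6.69, with no overlap (-0.75, adjusted p = 0.147). A further probe, listed for both Tyms and Tyms-ps and so not used, measured 4.13, 4.46 and 4.06 against 3.69, 3.61 and 3.73, a difference of 0.54 in the other direction. Tk1, the salvage thymidine kinase, measured 5.69, 5.33 and 5.96 against 5.32, 6.26 and 5.78 (adjusted p = 0.889). Slbp, which binds the stem-loop of histone mRNA and is regulated mainly at the protein level, measured 7.39, 8.19 and 8.03 against 7.82, 7.76 and 8.03. Its difference was -0.00, with a 95% interval of -0.56 to 0.56. None of the 5 genes of this step passed (0 in limma, against 4.84% of all genes, and 0 without moderation, against 0.812%). At an unadjusted p under 0.05 in limma, 3 were lower (against 9.44% of all genes) and 0 higher (against 7.79%). The difference between steps was not tested.

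The YFP-positive arrays did not lower all members to the same degree. Relative to the YFP-negative mean, YFP-positive replicates in order had helicase medians of -1.80, -1.23 and -1.10 and polymerase medians of -1.18, -1.03 and -0.72. Nucleotide genes had medians of -0.66, -1.19 and -0.19, and origin genes of -0.17, -0.90 and 0.06. Replicate 3 was thus the least shifted array in each step, while the medians of all genes tested lay between -0.04 and 0.00 on these arrays. In 38 of 49 members (77.6%) replicates 1 and 2 were both below all YFP-negative arrays, against 16.8% of all genes tested.

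**Figure D3:**
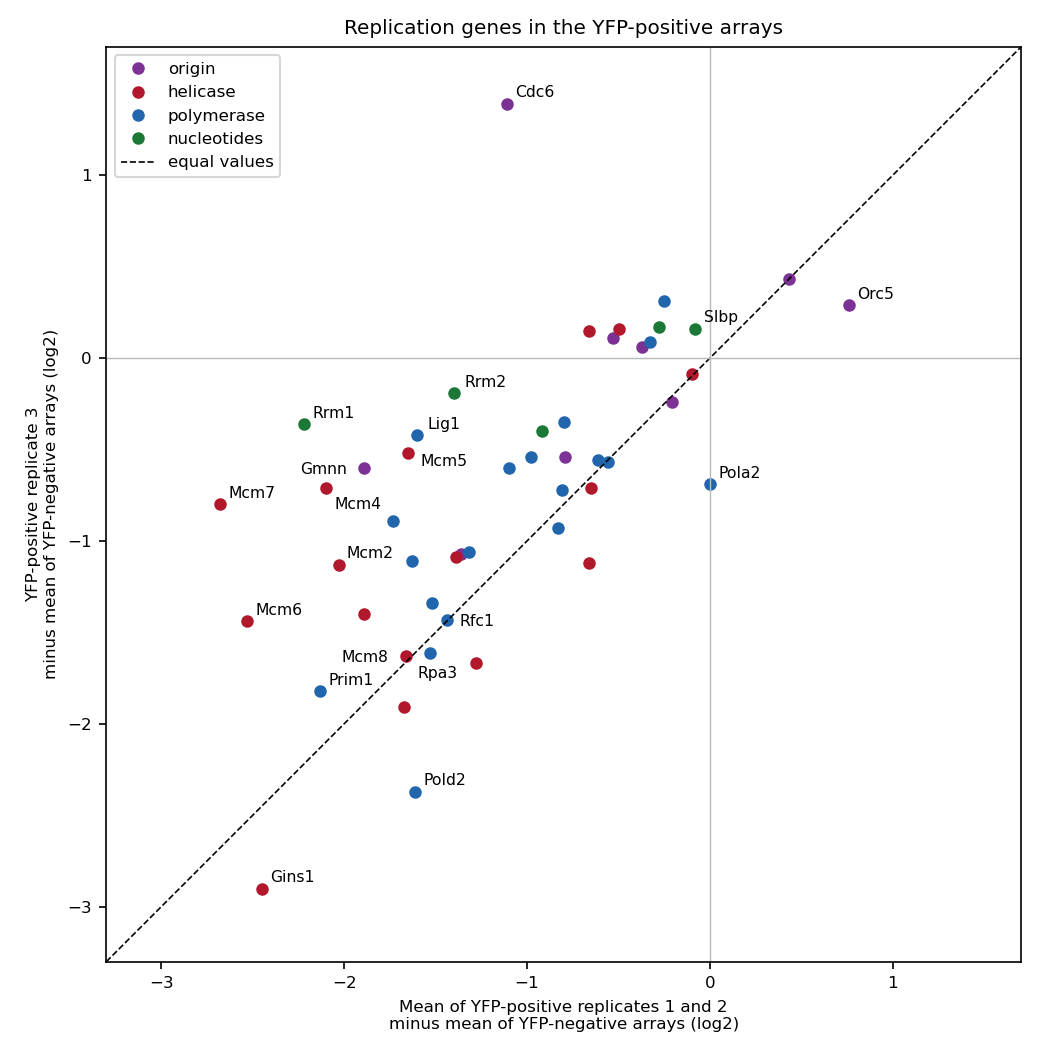
Each point is 1 measured replication gene, coloured by step, with the mean of YFP-positive replicates 1 and 2 on the horizontal and YFP-positive replicate 3 on the vertical axis, both as log2 differences from the mean of the YFP-negative arrays. Genes on the dashed line (Mcm8, Rfc1) were about as low in replicate 3 as in the mean of replicates 1 and 2. Genes well above it (Mcm7, Rrm1, Cdc6) were closer to the YFP-negative level, or above it, in replicate 3.

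Replicate 3 was the highest YFP-positive array in 25 of 49 members (51.0%), against 28.2% of all genes. It exceeded the mean of replicates 1 and 2 by 1 or more in 9 members (18.4%, against 3.67% of all genes), with Cdc6 (2.50), Mcm7 (1.88), Rrm1 (1.86) and Mcm4 (1.39) at the top. Mcm8, Rfc1, Rpa3 and Pold1 were at 0.03, 0.01, -0.08 and 0.05 on the same measure, and Pold2 at -0.76. The median of this gap was 0.22 over the 14 members that fell and 1.29 over the 7 that passed only without replicate 3 (Gmnn, Mcm4, Mcm7, Pcna, Lig1, Rrm1 and Rrm2). These 7 were singled out by that fit, so their gap is a description.

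Other gene lists moved with replicate 3. The G2 and M phase list, which marks dividing cells, had YFP-positive medians of -1.27, -1.69 and -0.05, in replicate order, over 19 measured genes. Of these, 2 fell (Cenpf and Prc1), against 1.96% of all genes, and 0 rose, against 2.88%. All 19 differences were below 0 (51.3% of all genes), and in 8 every YFP-positive array was below every YFP-negative array (11.9% of all genes). Mki67, the gene of the proliferation antigen Ki-67, measured 7.54, 7.16 and 8.97 against 9.08, 8.64 and 8.82 (adjusted p = 0.38, and 0.0195 without YFP-positive replicate 3). Cenpf and Prc1 lost their call without each array but YFP-positive replicate 3 (highest adjusted p = 0.146 and 0.122). The pan-leukocyte medians were -2.66, -2.41 and 0.18. In replicate 3 the medians of the helicase, polymerase, nucleotide and origin steps were -1.10, -0.72, -0.19 and 0.06. What part the leukocyte genes have in the result was not tested.

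**Figure D4:**
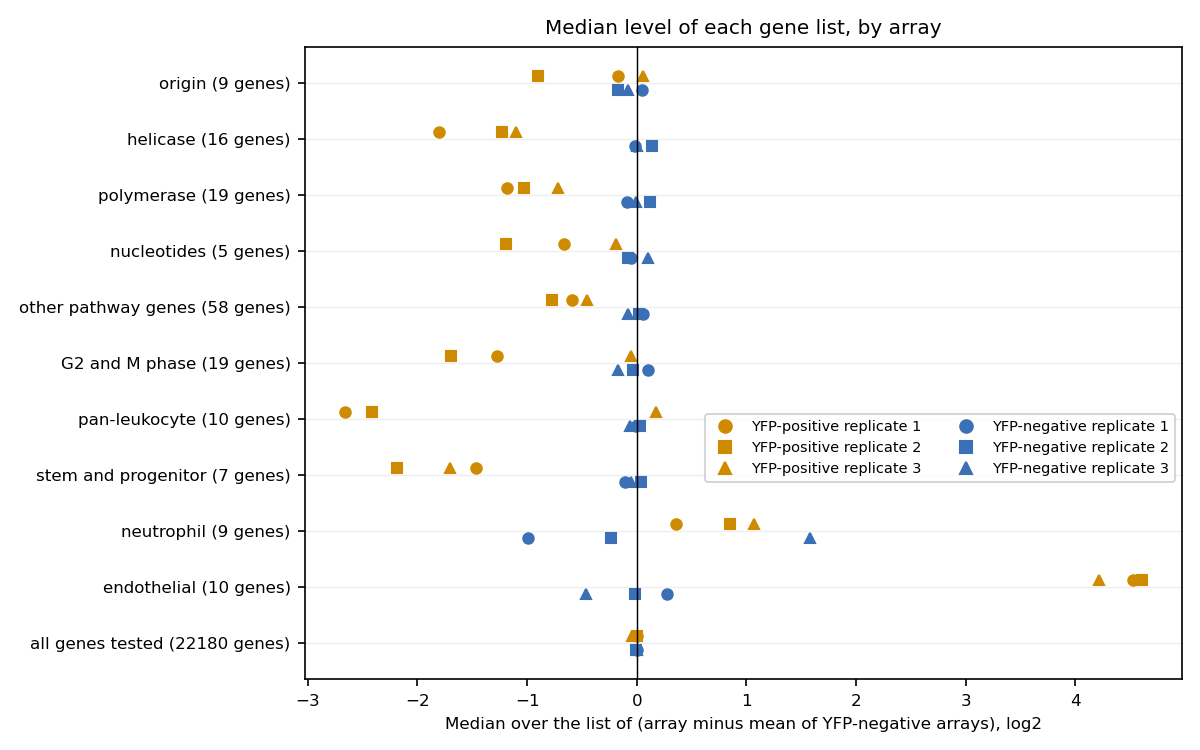
Median over each gene list (log2 difference of an array from the mean of the YFP-negative arrays, horizontal axis) for each of the 6 arrays, with orange YFP-positive and blue YFP-negative points. In YFP-positive replicate 3 the pan-leukocyte and G2 and M phase medians are 0.18 and -0.05. Those of the helicase, polymerase, nucleotide and origin steps are -1.10, -0.72, -0.19 and 0.06.

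Of 62 other genes of the same pathway 58 were measured. Of these, 9 fell, against 1.96% of all genes, and 0 rose, against 2.88%. At an unadjusted p under 0.05 in limma 1 was higher, against 7.79% of all genes. Without moderation 0 rose, where 0.812% of all genes passed in either direction. A difference below 0 was found for 50, against 51.3% of all genes, with a median of -0.62. Tipin, a fork protection factor, measured 5.57, 5.23 and 5.80 against 8.67, 8.27 and 8.10, which is 7.02-fold lower (-2.81 ± 0.21 SE, adjusted p = 0.002, at most 0.015 without 1 array). Its partner Timeless measured 3.96, 4.12 and 4.10 against 4.18, 3.89 and 3.72, near the array medians. Dscc1, part of an alternative clamp loader, measured 4.10, 3.52 and 4.71 against 6.36, 6.33 and 6.82 (5.26-fold lower, adjusted p = 0.0145). Topbp1, which helps to load Cdc45, was 2.43-fold lower (adjusted p = 0.0161), Clspn, a checkpoint mediator at the fork, 1.98-fold lower (adjusted p = 0.018) and Exo1, a nuclease, 2.71-fold lower (adjusted p = 0.0479).

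The nucleotide supply and chromatin assembly groups held the other 4. Hells, a chromatin remodeller of replicating cells, measured 3.71, 3.94 and 5.24 against 7.58, 7.64 and 6.82 (8.29-fold lower, adjusted p = 0.0196), and YFP-positive replicates 1 and 2 lie at the array medians. Dnmt1, the maintenance DNA methyltransferase, measured 7.26, 7.54 and 7.68 against 8.86, 8.95 and 8.72 (2.56-fold lower, adjusted p = 0.00698, at most 0.0374 without 1 array). Chaf1a, a histone chaperone subunit, was 2.94-fold lower (adjusted p = 0.024), from a YFP-positive mean of 3.91 at the array medians, and Dtymk, the thymidylate kinase, 3.96-fold lower (adjusted p = 0.0204). Uhrf1, which brings Dnmt1 to new DNA, measured 5.33, 5.07 and 4.99 against 6.75, 7.21 and 5.90 (adjusted p = 0.0687, and 0.0195 without YFP-negative replicate 3).

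The count of 9 became 3, 6 or 11 when YFP-positive replicate 1, 2 or 3 is omitted. It became 3, 2 or 7 when YFP-negative replicate 1, 2 or 3 is omitted, and 1 (Tipin) when the variance is not moderated. Some of these counts include genes outside the 9, such as Atad5 without YFP-negative replicate 1. Of all genes 1.94% to 5.34% passed in the fits without 1 array, and 0.812% without moderation. Clspn, Dscc1 and Chaf1a lost the call when YFP-positive replicate 1 or any YFP-negative array is omitted (adjusted p up to 0.0671, 0.0564 and 0.0961). Topbp1 and Hells lost it when replicate 1 or 2 of either population is omitted (up to 0.069 and 0.0806). Exo1 passed only when YFP-negative replicate 3 is omitted (otherwise up to 0.149), and Dtymk lost the call when YFP-negative replicate 1 or 2 is (up to 0.0802).

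**Figure D5:**
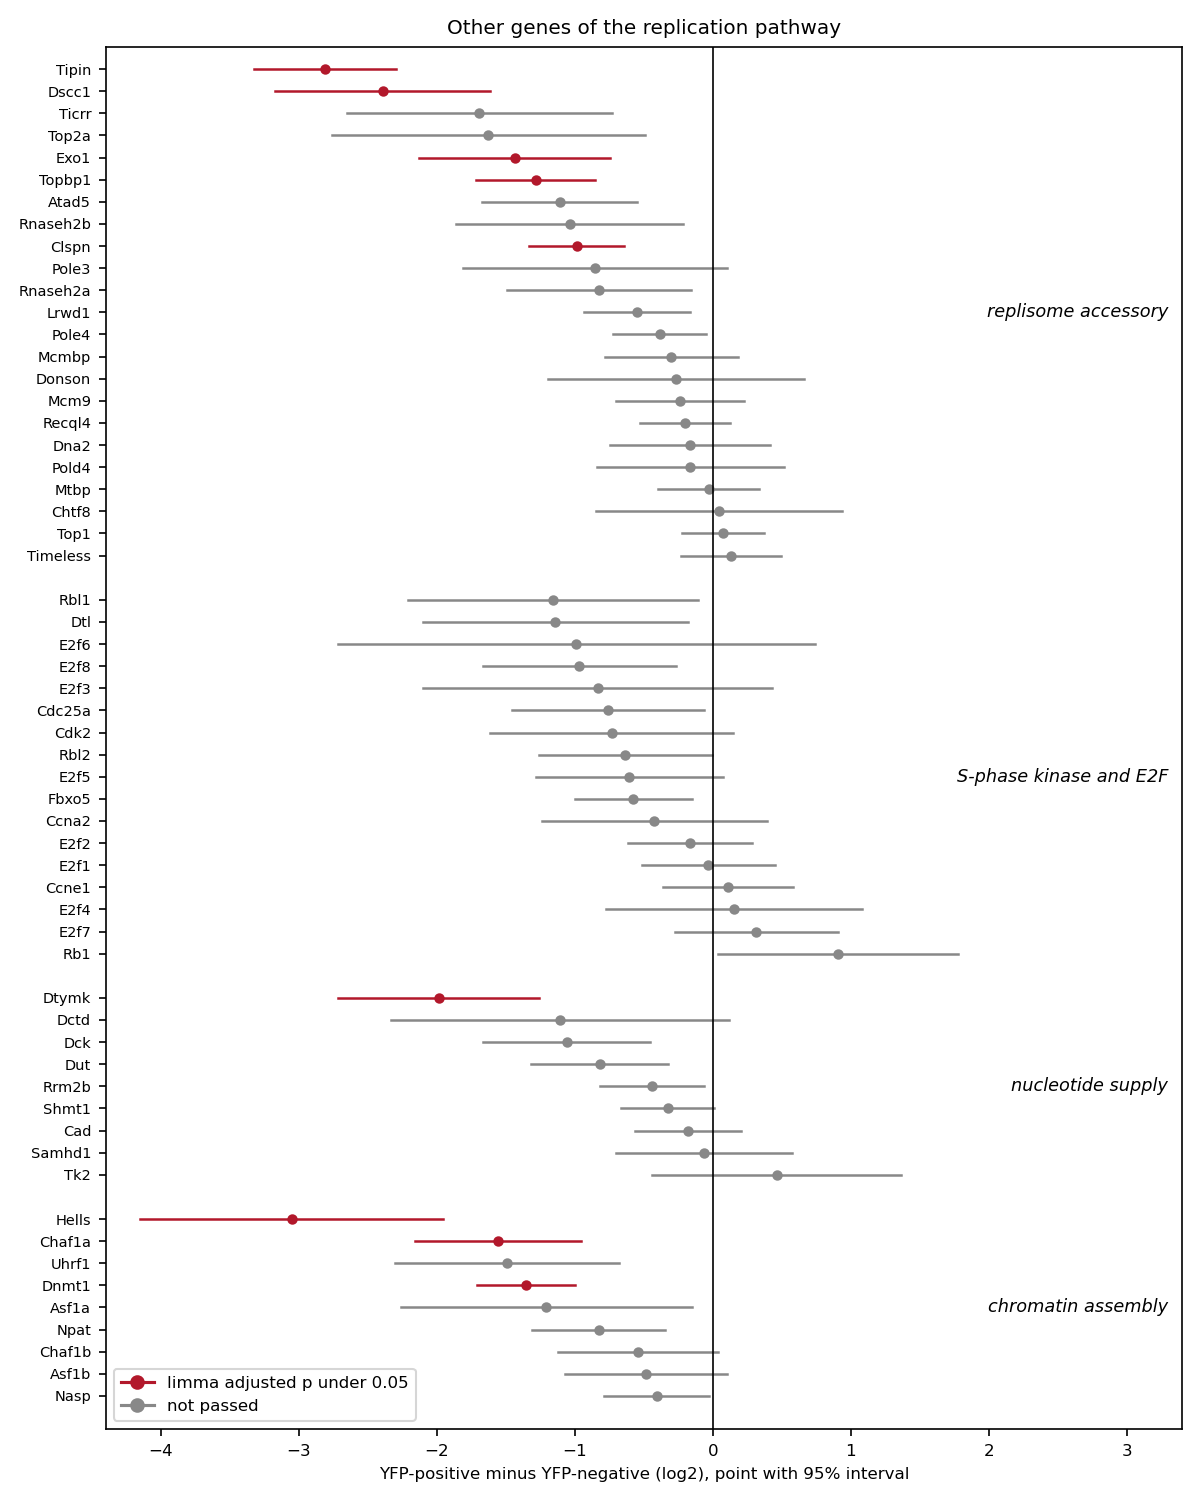
Difference between populations (YFP-positive minus YFP-negative, log2) of the 58 other measured pathway genes with the 95% interval from limma, by group, with the 9 genes past an adjusted p of 0.05 in red. None of the 17 genes of the S-phase kinase and E2F group is red, where 4.84% of all genes passed.

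The S-phase kinase and E2F group held no gene past the threshold. Of its 17 measured genes for S-phase kinases, E2F factors and pocket proteins 0 passed in limma, where 4.84% of all genes did. Without moderation 0 passed, where 0.812% of all genes did. At an unadjusted p under 0.05 in limma, 6 were lower (against 9.44% of all genes) and 1 higher (against 7.79%). E2f1, an activator of replication genes, measured 5.06, 4.58 and 4.66 against 5.01, 4.49 and 4.89 (-0.03, 95% interval -0.51 to 0.45). Ccne1, the gene of cyclin E1, measured 4.36, 4.02 and 4.49 against 3.94, 4.11 and 4.48 (0.11, interval -0.36 to 0.58). Rb1, the retinoblastoma protein gene, was the 1 higher gene, at 8.18, 8.76 and 8.55 against 7.92, 6.80 and 8.03 (0.91, adjusted p = 0.268). Ccne2 had no probe of its own and was not analysed here.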

How the data were processed

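The values are log2 expression levels as deposited, 1 column per array for 41345 probes. The submitters' processing notes name Partek. The normalization and background correction were not given in the sources used here, and the log2 scale was read from the values. Per the labels' protocols, amplification (Ovation Pico V2) started from 500 pg of RNA and all RNA was isolated together. Probes with exactly 1 gene symbol were kept (23521 of 25335 listed), with the probe of highest mean for each gene. All 49 measured members matched RefSeq by gene identifier.

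Differences were tested with limma 3.58.1 (lmFit, eBayes) in R 4.3.3 with population as the only term, two-sided, adjusted over all 22180 genes (Benjamini-Hochberg, threshold 0.05). "Passed", "rose" and "fell" refer to that threshold, "without 1 array" to refits on the other 5. Precision is limited by the number of arrays. The code was tested on simulated data. Array values are given for members that passed, for the largest difference that did not in each step, and for a set of key genes. Array values of the remaining members, and other genes named from the pathway and marker lists, were added after their values were seen. Summed levels of markers are sums of 2 to the power of the log2 value. The members and lists were chosen with earlier results of these data known. Promoter motifs were searched as exact letters.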

Additional observations from a re-analysis of the deposited data

How the results depend on the processing

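The median difference of the members kept its sign and stayed between -0.83 and -1.11 in all alternatives run. No member rose in any of them. Centring, quantile normalization, the mean of a gene's probes, an intensity trend and a filter on genes above the median level gave 13 to 16 members lower, of which 12 to 14 were among the 14 of the fit reported. Without moderation of the variance 180 genes, 0 members and 1 other pathway gene passed. With the replicate number as a block 580 genes and 7 members passed (6 of the 14, and Gins1), and 6 other pathway genes. Same-numbered arrays of the 2 populations had deviations correlated at r = 0.0985, 0.0806 and 0.167, and differently numbered arrays at -0.111 to 0.0301. Each array thus correlated best with its own number. Whether same-numbered arrays are pairs was not tested, and the fit reported does not use the numbers. Leaving out 1 array gave 430 to 1185 genes, 4 to 17 members and 2 to 11 other pathway genes. The cause of these changes was not tested beyond the smaller number of arrays. Levels near the array medians (Orc1, Orc5, Cdc7, Pole2, and Gins1, Hells, Chaf1a and Fen1 in YFP-positive cells) limit what their differences can show. The same holds for Cdc6 and Mcm7, which lay below the array medians in YFP-positive replicates 1 and 2.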

Other observations

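Of 8 cell cycle inhibitor and D cyclin genes, outside the replication machinery, 1 rose (against 2.88% of all genes) and 0 fell (against 1.96%). At an unadjusted p under 0.05 in limma, 1 (Ccnd2) was lower, against 9.44% of all genes. Without moderation of the variance 0 passed in either direction, where 0.812% of all genes did. Cdkn1c, the gene of the inhibitor p57 that is prominent in quiescent blood stem cells, measured 6.74, 6.24 and 6.18 in YFP-positive and 5.37, 4.98 and 5.43 in YFP-negative arrays (2.18-fold higher, adjusted p = 0.0374). It lost the call without each array but YFP-positive replicate 3 (adjusted p up to 0.109, and 0.0493 in the fit that kept it). Cdkn1a and Cdkn1b differed by -0.05 and -0.77, and Ccnd1, Ccnd2 and Ccnd3, the D cyclins that drive cells out of G1, by 0.25, -0.71 and 0.14, and none of these 5 passed.

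Both probes of Rrm2 were lower in every YFP-positive array than in every YFP-negative array, but only the dimmer passed. The dimmer probe measured 5.28, 5.38 and 5.65 in YFP-positive and 6.24, 6.36 and 6.24 in YFP-negative arrays, and its difference of -0.84 passed when each of the 41345 probes was tested on its own (adjusted p = 0.0464). The brighter probe, used above, differed by -1.0 with a wider spread (adjusted p = 0.306 in the same test). The probe that Rfc4 shares with Eif4a2 measured 3.50, 4.77 and 3.27 against 7.20, 5.77 and 5.33 (adjusted p = 0.191), and cannot be assigned to either gene.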
